A study of Mus musculus with 16 samples.

Results

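JAK, STAT and SOCS genes encode the relay that carries a cytokine signal from the surface of a T cell to its nucleus, and 10 of them were followed in splenic memory CD4+ T cells of 2 mouse lines. They were taken by gene symbol: the suppressors of cytokine signalling Socs1, Socs2, Socs3 and Cish, the transcription factors Stat3, Stat4, Stat5a, Stat5b and Stat6, and the kinase Jak1. These are 10 of the 56748 genes in the deposited tables, each symbol matched 1 row, and all 10 had enough reads to be tested in every comparison. RNA was sequenced from 16 samples in 4 groups of 4, namely HP1α KO, HP1α WT, HP1γ KO and HP1γ WT. HP1α (gene Cbx5) and HP1γ (gene Cbx3) are heterochromatin proteins that bind methylated histone H3 in silenced chromatin. The comparisons addressed which transcripts depend on either protein in these cells, and whether both losses act on the same transcripts. The cells were sorted as CD4+CD25low/-CD62L-CD44high from male mice of a mixed 129/Sv x C57BL/6 background, aged 6 to 12 weeks.

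The lines were built in different ways. In the HP1α line the gene was deleted in all tissues with a CMV-cre transgene, and Hp1a+/- mice were intercrossed, so that HP1α WT mice are Hp1a+/+ and HP1α KO mice are Hp1a-/-. In the HP1γ line both groups are homozygous for a floxed Hp1g allele and the HP1γ KO mice also carry Cd4-cre, which is active from the thymus on in T cells. The effect of the Cre transgene and that of HP1γ loss therefore cannot be told apart. The WT groups of the lines differ in floxed alleles and breeding together, and these and any other difference between the lines cannot be told apart. KO and WT mice of a line were littermates. The sources used here do not say whether animals were pooled or which samples share a litter, so the p-values measure only the spread between these samples.

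Cytokines such as IL-2, IL-4, IL-6, IL-10, IL-12 and the interferons bind paired receptor chains that hold JAK kinases. The kinases phosphorylate the receptor tails and the STAT proteins that dock there, and the STAT dimers then enter the nucleus and bind gamma-activated sites in DNA. Cish and the Socs genes are themselves STAT targets, and their proteins bind receptors or JAKs through an SH2 domain and recruit an E3 ubiquitin ligase through the SOCS box, which closes a negative feedback loop. In CD4+ T cells STAT4 is known for Th1, STAT6 for Th2, STAT3 for Th17 and follicular helper, and STAT5 for regulatory and memory T cell programmes.

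Total counts ranged from 26694045 to 40199637 per sample, and 3 counts correspond to at most 0.112 CPM, the count scaled to the effective library size, in any library, far under the lowest member value of 17.2 CPM (Socs2). Cbx3, the gene targeted in the HP1γ line, lay at 45.9 to 50.3 CPM in HP1γ KO and at 73.4 to 92.5 CPM in HP1γ WT (log2 fold change -0.82, adjusted p = 0.001495, edgeR quasi-likelihood test). Cbx5, targeted in the HP1α line, lay at 23.1 to 29.03 CPM in HP1α KO and at 33.8 to 54.1 CPM in HP1α WT, so that the groups did not overlap, although the change did not pass the adjusted threshold (log2 fold change -0.58, adjusted p = 0.946). Cbx5 was as low in HP1γ KO, at 20.1 to 29.8 CPM, and lay at 27.1 to 37.4 CPM in HP1γ WT, so its level does not mark the HP1α KO libraries among all 16. The summed memory CD4 T cell markers were 3789 to 4466 CPM over the 16 samples. B cell markers summed to 6.6 to 28.3 CPM, CD8 T cell markers to 5.09 to 18.5 CPM and myeloid markers to 29.7 to 126.5 CPM. Naive T cell markers summed to 487 to 746 CPM, regulatory T cell markers to 507 to 1060 CPM and natural killer markers to 48.6 to 82.6 CPM. Of the myeloid markers S100a8 and S100a9 had no count in 4 and 3 samples, and they reached at most 7.09 and 20.06 CPM. The ribosomal RNA gene Rn18s-rs5 stood at 9372 to 35190 CPM in HP1α WT and at 2360 to 9007 CPM in the other 3 groups. It was the most abundant transcript in HP1α WT replicates 2 and 3. The members called between the WT groups are therefore also given without both samples. So are Socs3, Cish and Stat5a in the knockout comparisons that use HP1α WT. In bulk RNA, fewer cells of a type and less RNA per cell cannot be told apart.

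In the GRCm39 assembly the members lie on 6 chromosomes, none of them chromosome 15 or 6, which carry Cbx5 and Cbx3. Stat5b (chr11:100671556-100741589, minus strand), Stat5a (chr11:100750177-100776065, plus strand) and Stat3 (chr11:100775924-100830450, minus strand) form 1 cluster, in which 8587 bp separate Stat5b from Stat5a while Stat5a and Stat3 overlap by 142 bp at their 3′ ends. Socs3 is on the same chromosome at chr11:117856905-117860898 (minus strand). Socs2 (chr10:95219523-95253929, minus strand) and Stat6 (chr10:127477821-127496862, plus strand) share chromosome 10. Cish is at chr9:107173225-107179983 (plus strand), Socs1 at chr16:10600104-10603875 (minus strand), Stat4 at chr1:52026307-52151423 (plus strand) and Jak1 at chr4:101008838-101122487 (minus strand).

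STAT dimers are known to bind the gamma-activated motif TTCNNNGAA, which is its own reverse complement, so a search of 1 strand covers both. RefSeq promoter windows of 300 bases, 250 before and 50 after an annotated start, were taken from a table of build GRCm38.p6 and placed on GRCm39 by exact match. They were given for 9 of the 10 members, in 12 windows. Of these 12 windows 2 held the motif, those of Cish and Socs3, against 8.3% of all 32851 windows and 6.86% of the 13376 windows of genes tested here. A pair of matches, as in Cish, occurred in 0.457% of all windows. The motif with 1 more base between its arms, TTCNNNNGAA, which is known for STAT6, was in 0 of the 12 windows and in 6.95% of all. Of the other pathway genes described further on, 17 of the 68 with a window held either motif in any of their windows. This count is by gene and for both motifs together, and no share over all genes was computed for it. The sites of both genes are shown because both genes are known STAT targets and theirs were the member windows that matched, with the motif in capitals, read 5′ to 3′ on the strand of the gene.
Cish site, chr9:107173853-107173882, plus strand, GRCm39: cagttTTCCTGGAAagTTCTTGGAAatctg
Socs3 site, chr11:117860327-117860356, minus strand, GRCm39: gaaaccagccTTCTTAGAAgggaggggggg
Socs3 upstream, chr11:117860193-117860442, minus strand, GRCm39: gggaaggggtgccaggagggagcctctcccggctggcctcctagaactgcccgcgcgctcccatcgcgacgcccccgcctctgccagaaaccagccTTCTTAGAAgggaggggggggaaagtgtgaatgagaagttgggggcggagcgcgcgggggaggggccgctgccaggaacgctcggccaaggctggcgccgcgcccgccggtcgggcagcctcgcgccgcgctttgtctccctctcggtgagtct
The matches of Cish cover bases 1 to 9 and 12 to 20 after the RefSeq start, and the match of Socs3 lies 154 to 146 bases before its start. Both RefSeq starts and both windows lie inside the gene intervals given above. The Cish interval begins at chr9:107173225, before its window, which begins at chr9:107173608. Neither window thus lies before the outermost annotated start of its gene. A match of letters is a description of the window, and factor binding was not measured here.

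Levels were compared between genes in TPM, the deposited unit that corrects for transcript length. Socs3, the inhibitor of gp130 and related receptors, was the most abundant member, with a mean of 431 TPM ± 87.96 (SD, n = 16). Jak1, a kinase of the receptors that contain the common γ chain or gp130 and of interferon receptors, followed at 301 TPM ± 22.2 and Stat3 at 201 TPM ± 38.9. Socs3 exceeded Jak1 in 15 of 16 samples, and Jak1 exceeded Stat3 in all 16. Among 13202 genes averaging 1 TPM or more, Socs3 stood at percentile 97.6 and Stat3 at percentile 94.6.

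Stat6, Stat5b, Cish, Stat5a and Stat4 formed a middle tier with means of 120.3, 109.4, 106.5, 89.4 and 87.2 TPM. Neighbours in this tier changed places between samples. Stat6 exceeded Stat5b in 11 of 16 samples, Stat5b exceeded Cish in 7, Cish exceeded Stat5a in 11 and Stat5a exceeded Stat4 in 8. Cish spanned the widest range of the tier, 47.1 to 191.7 TPM. Socs1, which inhibits JAKs directly, and Socs2, known for restraint of growth hormone signalling, were lower, at means of 33.8 and 27.7 TPM. Ranges of neighbours in the order did not overlap in only 2 places, between Stat3 and Stat6 and between Stat4 and Socs1.

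**Figure D1:**
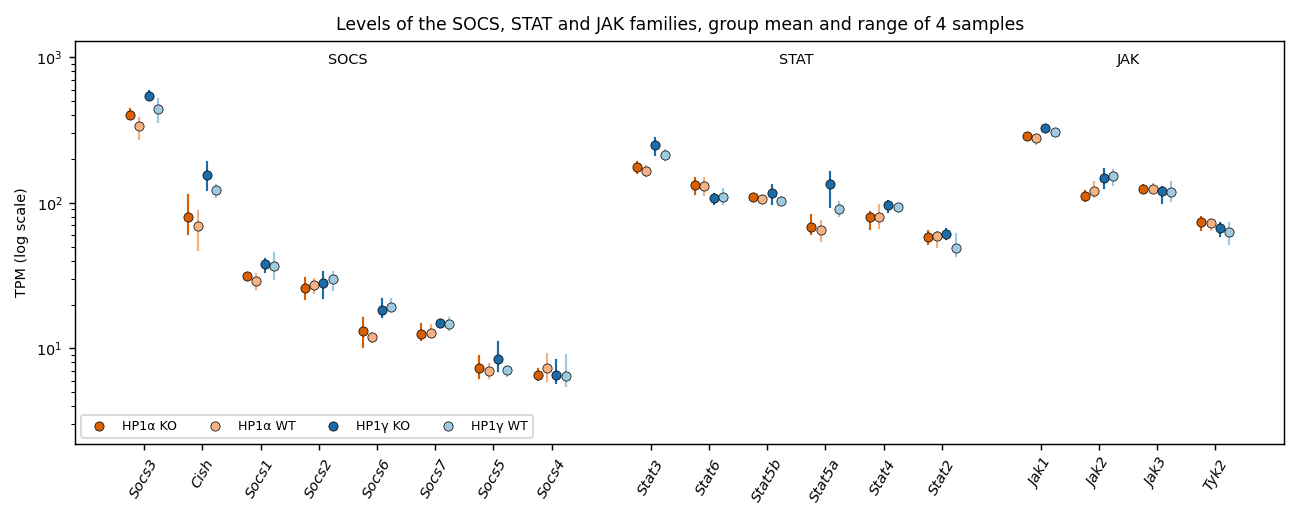
Level in TPM (log scale) of each member and of other JAK, STAT and SOCS genes, with a point for each group mean and a line for the range of its 4 samples. Socs3, Jak1 and Stat3 are the highest members, Socs1 and Socs2 are the lowest members, and Socs4 to Socs7 lie between 6.71 and 15.7 TPM on average.

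Relatives outside the set were also expressed. Stat2, which relays type I interferon, averaged 56.8 TPM. Jak2, Jak3 (the γ chain kinase) and Tyk2 averaged 133, 122.5 and 69.0 TPM. The remaining SOCS genes were low, at 15.7 TPM for Socs6, 13.7 TPM for Socs7, 7.49 TPM for Socs5 and 6.71 TPM for Socs4.

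The calls among the members lay between the WT groups of the lines. Cish, Stat5a, Stat3 and Stat4 were lower in HP1α WT than in HP1γ WT, to 0.612, 0.686, 0.798 and 0.848 of the HP1γ WT level, and passed an adjusted p of 0.05 in edgeR's quasi-likelihood test. The other 6 did not pass, and none reached the study's threshold for a differentially expressed gene, an adjusted p under 0.05 with an absolute log2 fold change above 1, which 1.9% of all genes reached. The members were chosen with earlier results of these data known, so the shares set beside them here are a description. The 4 of 10 called compare with 12.8% of all 14804 genes tested, 8.25% called lower and 4.55% called higher. The median log2 fold change of the members was -0.28, against 0.02 over all genes tested. At an unadjusted p under 0.05 stood 8 of 10 members, 7 of them lower, against 29.9% of all genes and 16.1% lower. Cish, Stat5a and Stat4 did not overlap between the groups, 3 of 10 members beside 19.5% of all genes and 10.7% lower.

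Among the feedback inhibitors Cish, which STAT5 induces after IL-2 family cytokines and T cell receptor signals, had 118, 93.1, 187 and 176 CPM in HP1α WT replicates 1 to 4. In HP1γ WT it had 259, 224.5, 206 and 249 CPM. All 4 HP1α WT samples lay under all 4 HP1γ WT samples, with replicates 3 and 4 of HP1α WT closest to them. This was a log2 fold change of -0.71 (SE 0.195, 95% interval -1.14 to -0.28, adjusted p = 0.0403).

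Socs3 had 530.3, 399, 511 and 574 CPM in HP1α WT and 708.5, 551, 631 and 765.5 CPM in HP1γ WT. The groups overlapped only through HP1α WT replicate 4 and HP1γ WT replicate 2. The log2 fold change of -0.40 (95% interval -0.68 to -0.12) missed the threshold (adjusted p = 0.06203), and it passed in 4 of 16 alternatives. Over these alternatives the log2 fold change of Socs3 ran from -0.48 to -0.264. Socs1 (log2 fold change -0.33, 95% interval -0.60 to -0.06) and Socs2 (-0.17, -0.41 to 0.06) were not called. All 4 inhibitors thus had a lower mean in HP1α WT, and 1 of them passed the test.

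Among the transcription factors Stat5a, 1 of the paired IL-2 and IL-7 signal transducers, had 123, 108, 150.2 and 131 CPM in HP1α WT. In HP1γ WT it had 218, 211, 155 and 163 CPM. The groups did not overlap, but HP1α WT replicate 3 came close to HP1γ WT replicate 3. Stat5a thus had a log2 fold change of -0.54 (SE 0.132, 95% interval -0.84 to -0.25, adjusted p = 0.02666).

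Its twin Stat5b had 315.8, 292.5, 311.8 and 303.4 CPM in HP1α WT and 323.9, 317, 269.4 and 294.5 CPM in HP1γ WT. The HP1α WT range lay inside the HP1γ WT range, with a log2 fold change of 0.02 (95% interval -0.13 to 0.17). The 2 genes share long stretches of sequence. The longest between their transcripts was 2354 nt at 90.2% identity, and Stat5b also shared at least 150 nt at 98% identity or more with Stat5a, so reads from these stretches could be divided between them and both values are less certain than those of the other members.

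Stat3, which relays IL-6, IL-21 and IL-10, had 271, 276, 283 and 309.5 CPM in HP1α WT and 400.4, 378, 299.9 and 348 CPM in HP1γ WT. HP1γ WT replicate 3 fell under HP1α WT replicate 4, and the groups otherwise separated. For Stat3 the log2 fold change was -0.33 (SE 0.0897, adjusted p = 0.04044).

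Stat4, which relays IL-12, had 123, 144, 117 and 125 CPM in HP1α WT and 155, 146, 146 and 153 CPM in HP1γ WT. The groups did not overlap, with HP1α WT replicate 2 only just under the lowest HP1γ WT sample. For Stat4 the log2 fold change was -0.24 (SE 0.0698, adjusted p = 0.04919). Stat6, which relays IL-4 and IL-13, had the opposite sign, at 226 to 280.7 CPM in HP1α WT and 202 to 233.5 CPM in HP1γ WT (log2 fold change 0.21, 95% interval 0.03 to 0.39, adjusted p = 0.1075). Jak1 differed least after Stat5b, at 769.8 to 833 CPM against 821.8 to 933.9 CPM (log2 fold change -0.14, adjusted p = 0.1609).

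**Figure D2:**
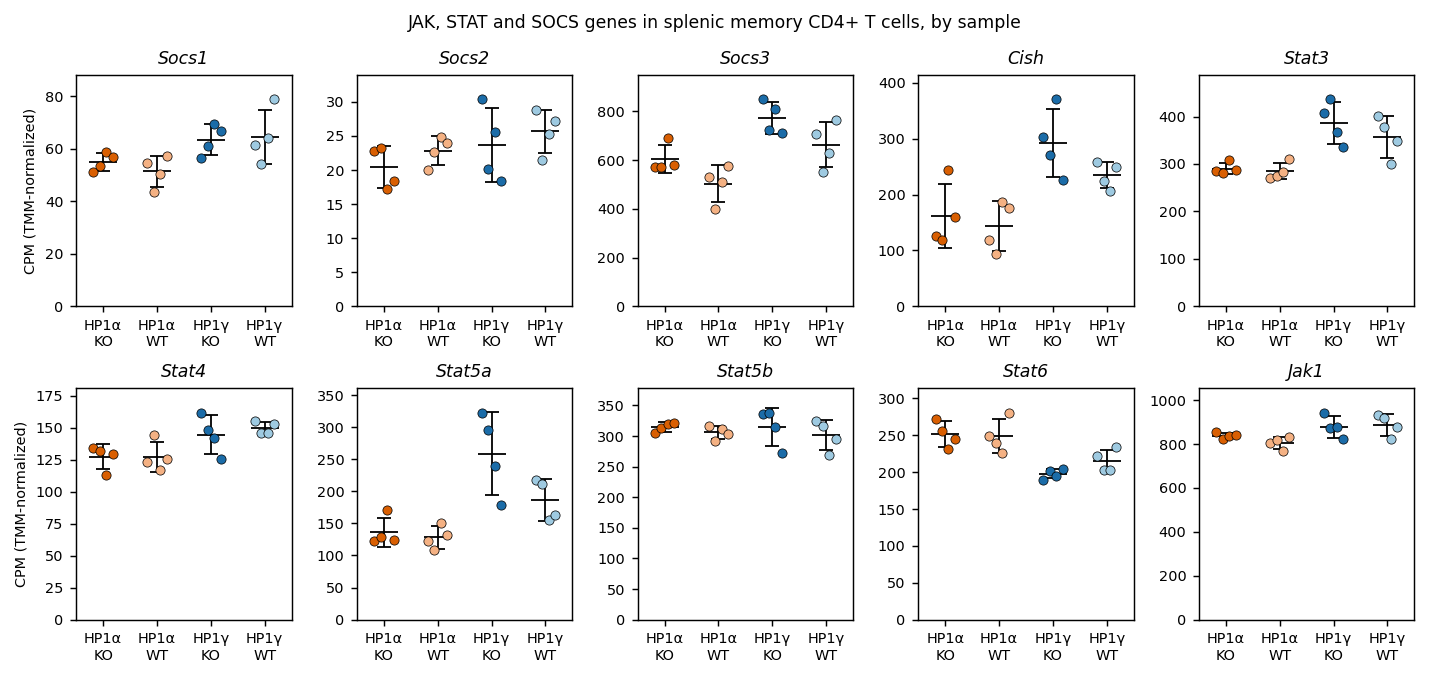
CPM (linear axis from 0) of the 10 members in each sample, by group, with the group mean ± SD of 4 samples in black. Cish, Stat5a and Stat4 show HP1α WT and HP1γ WT samples that do not overlap, and KO and WT points of the same line overlap for every member.

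The calls between the WT groups rested on few samples. With 1 of the 8 samples left out in turn, Stat5a remained called in 3 of 8 fits (adjusted p 0.0206 to 0.0852), Cish in 3 of 8 (0.0216 to 0.12), Stat3 in 1 of 8, without HP1γ WT replicate 3 (0.0174), and Stat4 in 1 of 8, without HP1α WT replicate 2 (0.0284). Stat5a lost its call without HP1α WT replicate 1, 2 or 4 or HP1γ WT replicate 1 or 2, and Cish without HP1α WT replicate 1 or 2 or HP1γ WT replicate 1, 2 or 4. All 4 genes kept a lower mean in HP1α WT throughout these fits. Without both HP1α WT samples high in Rn18s-rs5 the log2 fold changes were -0.55 for Stat5a, -0.67 for Cish, -0.30 for Stat3 and -0.27 for Stat4, and none of the 4 passed (adjusted p 0.0746, 0.057, 0.17 and 0.0639).

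Markers of cell state are given for the same comparison, in which 12.8% of all genes were called. Of 8 memory markers 1 was called, Cd44, which was lower in HP1α WT (log2 fold change -0.35, adjusted p = 0.0104), and of 6 naive markers 1 was called, higher. Of 6 regulatory T cell markers 2 were called lower, Il10 and Tnfrsf4, while Foxp3 was not (mean 94.3 CPM in HP1α WT and 91.6 CPM in HP1γ WT), and the summed markers lay at 527 to 756 CPM and 607 to 992 CPM. Of the natural killer markers 1 of 3 tested was called lower, and of the B cell, CD8 T cell and myeloid markers 0 of 7, 0 of 2 and 0 of 7 tested were called. Of 14 early response genes 3 were called, with Atf3 lower and the heat shock genes Hspa1a and Hspa1b higher in HP1α WT. The summed early response genes were 5216 to 6843 CPM in HP1α WT and 5591 to 7601 CPM in HP1γ WT. The part of these markers in the members' values was not tested.

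The KO groups of the lines are set side by side here as a description, because line and deleted gene are joined in them. Stat5a lay at 122 to 170.2 CPM in HP1α KO and at 178 to 322.5 CPM in HP1γ KO, Stat3 at 282 to 308 CPM and 336 to 436 CPM, and Socs3 at 571 to 689.6 CPM and 713 to 849 CPM. These 3 did not overlap and were lower in HP1α KO, with Stat5a at a ratio of means of 0.526. Stat6 did not overlap in the opposite direction, at 232 to 273 CPM in HP1α KO and 190.0 to 204 CPM in HP1γ KO. The 4 of 10 members that did not overlap compare with 31.2% of all genes tested, 15.5% lower and 15.7% higher. With both genotypes together no member separated the 8 samples of 1 line from the 8 of the other, although Cish had a median of 142.7 CPM in the HP1α line and 254 CPM in the HP1γ line.

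Between HP1γ KO and HP1γ WT no member passed the adjusted threshold in edgeR's quasi-likelihood test, against 0.327% of 14975 genes. DESeq2 and limma called 0 members too. At an unadjusted p under 0.05 stood 3 of 10, Stat5a, Cish and Socs3, all with a higher mean in HP1γ KO, against 11.9% of all genes and 6.34% higher. The members' median log2 fold change was 0.04, against 0.00 over all genes. KO and WT values overlapped for all 10 members, where 7.1% of all genes did not overlap.

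Stat5a had 322.5, 296, 239 and 178 CPM in HP1γ KO replicates 1 to 4, beside the HP1γ WT values given above. KO replicates 1, 2 and 3 exceeded every WT sample, and replicate 4 fell between the WT samples. Stat5a had a log2 fold change of 0.48 (SE 0.179, 95% interval 0.08 to 0.88, adjusted p = 0.3671 by edgeR), and it ran from 0.36 to 0.62 over the 15 alternatives, 0 of which called it.

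Cish had 303.5, 271, 370.1 and 226 CPM in HP1γ KO. Replicates 1, 2 and 3 exceeded every WT sample, and replicate 4 lay inside the WT range. Cish had a log2 fold change of 0.33 (95% interval 0.03 to 0.63, adjusted p = 0.3884 by edgeR), and it ran from 0.20 to 0.43 with 1 sample left out.

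Socs3 had 849, 723, 809.8 and 713 CPM in HP1γ KO. Replicates 1 and 3 exceeded every WT sample. Socs3 had a log2 fold change of 0.23 (95% interval 0.001 to 0.46, adjusted p = 0.418 by edgeR), and it ran from 0.15 to 0.30 with 1 sample left out. This comparison shares its HP1γ WT samples with the comparison of the WT groups, in which the same 3 genes had their higher values in HP1γ WT, so the results are not independent of each other.

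The 95% intervals of the other 7 members all held 0. Stat3 had a log2 fold change of 0.13 (-0.10 to 0.36), Stat5b of 0.08 (-0.12 to 0.27) and Stat4 of -0.04 (-0.22 to 0.13). Stat6 had -0.11 (-0.26 to 0.03) and Jak1 -0.01 (-0.15 to 0.14). Of the remaining inhibitors Socs1 had -0.02 (-0.27 to 0.23) and Socs2 -0.11 (-0.45 to 0.23).

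Between HP1α KO and HP1α WT no member passed the adjusted threshold in edgeR's quasi-likelihood test, where 0% of 14881 genes passed, nor in DESeq2 or limma. Socs3 alone stood at an unadjusted p under 0.05, against 4.27% of all genes and 1.67% higher. The members' median log2 fold change was 0.05, against 0.00 over all genes. KO and WT overlapped for all 10 members, where 2.96% of all genes did not overlap.

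Socs3 had 573, 571, 689.6 and 579.7 CPM in HP1α KO replicates 1 to 4, against 399 to 574 CPM in HP1α WT. KO replicates 3 and 4 exceeded every WT sample, and replicates 1 and 2 lay just under WT replicate 4. Its log2 fold change was 0.26 (SE 0.107, 95% interval 0.02 to 0.50, adjusted p = 0.9461 by edgeR). It was 0.19 without HP1α KO replicate 3, 0.16 without HP1α WT replicate 2 and 0.125 without both HP1α WT samples high in Rn18s-rs5, and it no longer stood at an unadjusted p under 0.05 in these fits or without HP1α WT replicate 3 (0.27). The HP1α WT samples here are those of the comparison of the WT groups, in which Socs3 also had its lower mean in HP1α WT.

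Cish had 125, 118, 243.9 and 160.3 CPM in HP1α KO, a spread about its HP1α WT values that left the log2 fold change at 0.17 with a wide interval of -0.41 to 0.76. Without replicate 3 of HP1α KO, the highest of these samples, it was -0.09, and without both HP1α WT samples high in Rn18s-rs5 it was 0.14. Stat5a had 122, 128.5, 170.2 and 124 CPM in HP1α KO, of which replicate 3 alone exceeded the WT samples, with a log2 fold change of 0.09 (-0.19 to 0.36) that became -0.04 without it and 0.10 without both HP1α WT samples high in Rn18s-rs5. For the other 7 members the log2 fold changes ran from -0.16 (Socs2) to 0.10 (Socs1), and every interval held 0. The narrowest intervals were those of Jak1 (-0.05 to 0.16) and Stat5b (-0.06 to 0.15).

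**Figure D3:**
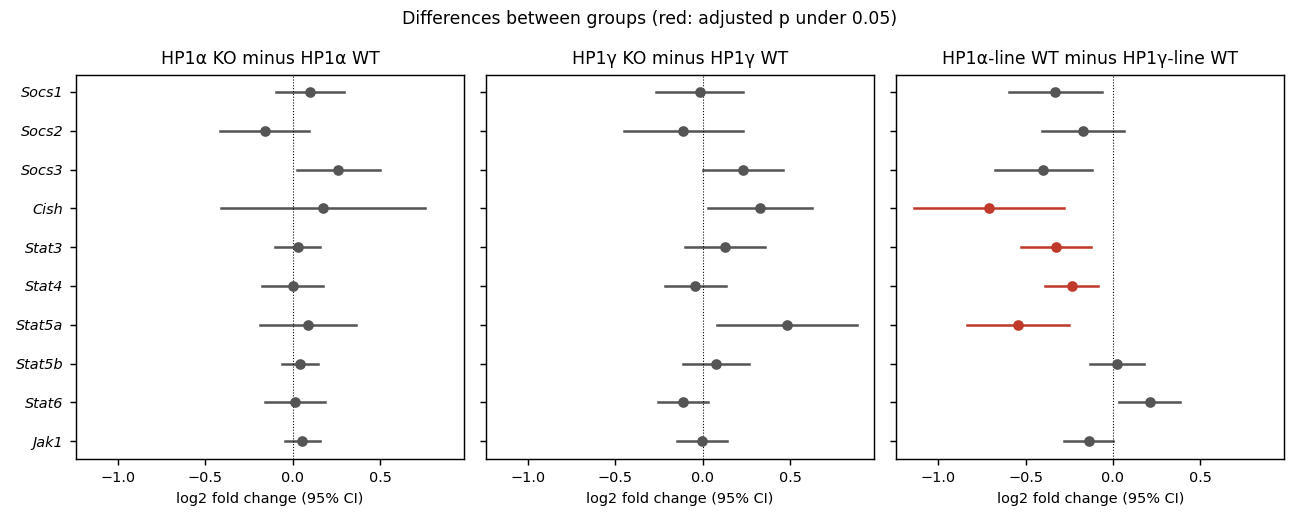
Log2 fold change of each member with its 95% interval for HP1α KO against WT, HP1γ KO against WT, and HP1α WT against HP1γ WT; red points passed an adjusted p of 0.05. The 4 red points, Cish, Stat5a, Stat3 and Stat4, are all in the comparison of the WT groups.

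The difference between the knockout effects was tested directly, as the log2 fold change of HP1α KO over WT minus that of HP1γ KO over WT. No member passed the adjusted threshold in edgeR's quasi-likelihood test, against 0.0507% of 15776 genes, 0 stood at an unadjusted p under 0.05, against 9.58% of all genes, and DESeq2 and limma called 0. Stat5a had the largest difference, -0.38 (SE 0.239, 95% interval -0.89 to 0.12, adjusted p = 0.658 by edgeR), with a mean fold of 1.06 in the HP1α line and 1.396 in the HP1γ line. Without HP1α KO replicate 3 it was -0.51 and without HP1γ KO replicate 4 -0.53, which stood at an unadjusted p under 0.05 but not past the adjusted threshold (adjusted p = 0.53 and 0.352 by edgeR). For Socs3, whose mean was higher in KO in both lines, the difference was 0.04 (-0.30 to 0.38), and for Cish -0.14 (-0.84 to 0.55). Without both HP1α WT samples high in Rn18s-rs5 the differences were -0.38 for Stat5a, -0.095 for Socs3 and -0.18 for Cish. The intervals leave room for differences between the lines of more than the effects themselves.

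The rest of the pathway was described from 8 lists with 90 genes, of which 84 were tested. Il3, Il5, Il6, Il7, Il9 and Osmr had too few reads. Between the WT groups 11 of 84 passed, 8 lower and 3 higher in HP1α WT, beside 12.8% of all genes, and 31 stood at an unadjusted p under 0.05, beside 29.9% of all genes. The median log2 fold change of the 84 was -0.07. By list 2 of 11 cytokines were called, 2 of 21 receptor chains, 1 of 4 other SOCS genes, 1 of 10 phosphatases and PIAS inhibitors, 1 of 4 parts of the SOCS box ligase, 4 of 29 STAT target genes, and 0 of 3 JAKs. Stat2, Jak2, Jak3 and Tyk2 were not called, beside 3 of the 5 member STATs that were, a difference between lists that was not tested.

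The share called was close to that of all genes, so the genes below are given one by one and not as a pattern of the pathway. Il10, the anti-inflammatory cytokine that signals through STAT3, averaged 11.7 CPM in HP1α WT and 28.1 CPM in HP1γ WT (log2 fold change -1.26, adjusted p = 0.00527). Ifngr1, the ligand-binding chain of the interferon γ receptor, averaged 224.5 and 354 CPM (-0.66, adjusted p = 0.04264), and Il9r, the IL-9 receptor chain, 62.8 and 45.2 CPM (0.47, adjusted p = 0.02733). Socs6 averaged 18.2 and 31.0 CPM (-0.77, adjusted p = 0.003952), and Eloc, the elongin C subunit that SOCS boxes bind, 32.7 and 39.9 CPM (-0.29, adjusted p = 0.03672).

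Pias3, an inhibitor of STAT3, was higher in HP1α WT (log2 fold change 0.36, adjusted p = 0.01538). Of the STAT target genes Furin, a protease induced by STAT4, averaged 274.6 CPM in HP1α WT and 473 CPM in HP1γ WT (-0.79, adjusted p = 0.01002). Bcl3, a nuclear IκB protein, and the kinase Pim3 were lower too (-0.49 and -0.42, adjusted p = 0.009324 and 0.02772), whereas Lta, which encodes lymphotoxin α, was higher (0.38, adjusted p = 0.03163). The remaining called gene, Il13, named after its values were seen, averaged 0.69 and 1.67 CPM (-1.28, adjusted p = 0.04676).

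**Figure D4:**
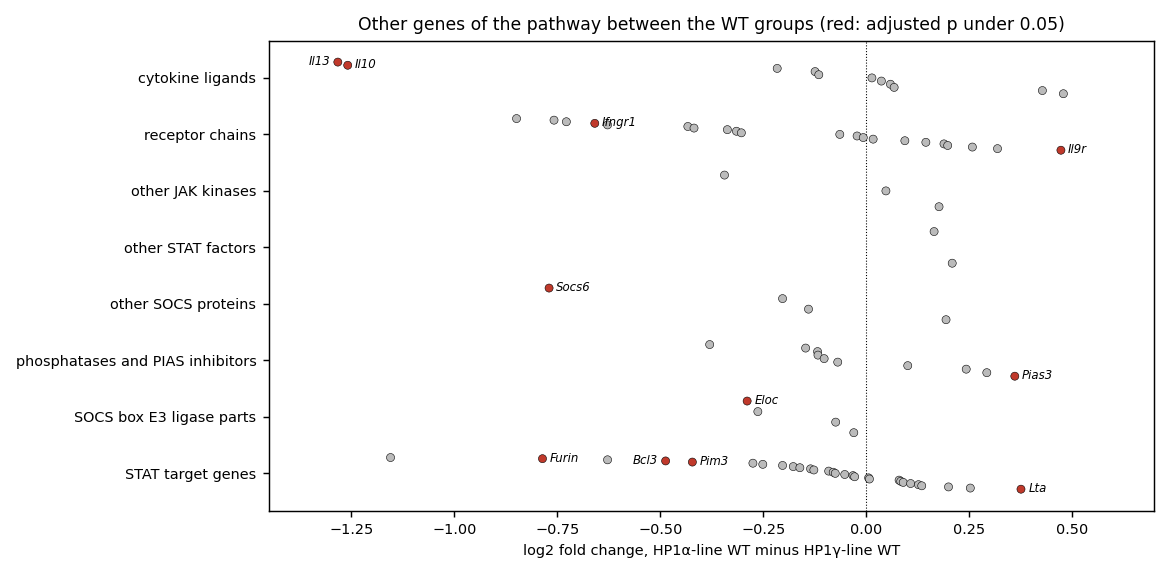
Log2 fold change between HP1α WT and HP1γ WT of the 84 tested pathway genes, 1 row per list, with the 11 genes called by edgeR's quasi-likelihood test in red. Of the called genes Il10, Il13, Furin and Socs6 lie furthest to the left, and Il9r, Lta and Pias3 are on the right.

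In the knockout comparisons 0 of the 84 passed in edgeR's quasi-likelihood test. In HP1γ KO 16 of 84 stood at an unadjusted p under 0.05, 7 higher and 9 lower, beside 11.9% of all genes and 6.34% higher. The smallest p belonged to the IL-10 receptor chain Il10ra, with a log2 fold change of 0.34 (adjusted p = 0.1548), followed by the interferon-induced GTPase Gbp2 (-0.31), Il4 (-0.85), the ligase subunit Rnf7 (-0.29) and Stat2 (0.24). In HP1α KO 2 of 84 stood at an unadjusted p under 0.05, beside 4.27% of all genes. These were Eloc (-0.20) and Gbp4 (-0.20), followed by Csf2 (-0.93, at means of 0.776 and 1.5 CPM), Irf7 (0.15) and Bcl2l1 (0.13). In the difference between the knockout effects 4 of 84 did, beside 9.58% of all genes, namely Il27ra (0.31), Elob (0.28), Rnf7 (0.30) and Ifit3 (0.68), ahead of Irf7 (0.27).

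The most abundant genes of the lists were mainly receptors and STAT targets. Ifng was the leading cytokine at a mean of 197 TPM, followed by Il10 at 23.4 TPM and Il4 at 10.3 TPM. The γ chain Il2rg (661 TPM), the IL-2 receptor β chain Il2rb (562 TPM) and Ifngr1 (272 TPM) led the receptors. Ptprc, which encodes CD45, led the phosphatases at 714 TPM, ahead of Ptpn6 at 149.7 TPM and Ptpn1 at 145 TPM. Elob (363 TPM) and Eloc (110.4 TPM) led the ligase parts, with Rnf7 at 69.3 TPM. Of the STAT targets Junb stood at 4250.0 TPM, Pim1 at 978 TPM and Irf1 at 442 TPM.

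Within groups 4 pairs of members varied together by Pearson's r, and none by Spearman's rho after adjustment. Deviations of log2 CPM from the group means were correlated over the 16 samples for all 45 pairs of members, with 100000 permutations within groups and Benjamini-Hochberg adjustment over the 45. Stat5a and Stat5b had Pearson's r of 0.862 (permutation p = 0.00066, adjusted 0.0297) and Spearman's rho of 0.844 (permutation p = 0.00122, adjusted 0.0549), and r of 0.766 without the 2 farthest samples. Stat3 followed both, with r of 0.812 for Stat5a (permutation p = 0.00145, adjusted 0.0326; rho 0.759, permutation p = 0.00575, adjusted 0.0862) and r of 0.819 without the 2 farthest samples. For Stat3 and Stat5b r was 0.843 (permutation p = 0.00323, adjusted 0.0378; rho 0.694, permutation p = 0.0211, adjusted 0.158) and 0.765 without them. Socs3 and Cish had r of 0.711 (permutation p = 0.00336, adjusted 0.0378), rho of 0.721 (permutation p = 0.00286, adjusted 0.0643) and r of 0.697 without them. The permutations shuffled each group on its own and took the groups as independent. Same-numbered KO and WT samples of a line deviated together with a mean r of 0.217 (HP1α line) and 0.114 (HP1γ line) over all genes. The p-values make no allowance for this. The part of library depth and preparation in these correlations was not tested.

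**Figure D5:**
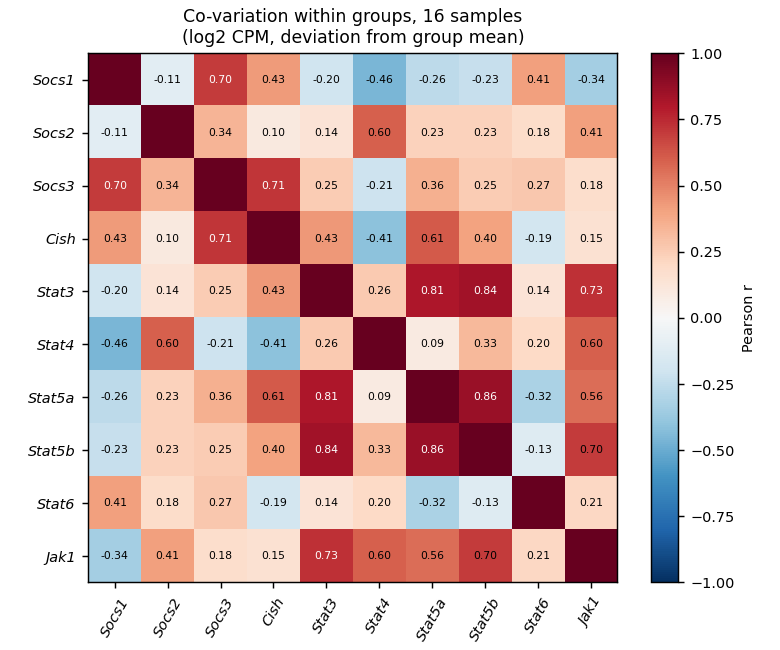
Pearson's r of the within-group deviations in log2 CPM for every pair of members over 16 samples. The block of Stat3, Stat5a and Stat5b, with r from 0.812 to 0.862, and the pair of Socs3 and Cish, at 0.711, passed after adjustment, whereas Stat3 and Jak1, at 0.732, did not.

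The 3 pairs with the highest r are those of the cluster on chromosome 11, where the transcripts of Stat5a and Stat5b share sequence while those of Stat5a and Stat3 overlap by 142 bp on opposite strands of a stranded library. Of the other members Socs3 and Stat6 shared no stretch of 150 nt at 98% identity with another gene, and the partners of Socs1, Socs2, Cish, Stat3, Stat4 and Jak1 were absent from the table or reached at most 9.82 CPM (Raver2, for Jak1). Within 1 Mb of each member the share of tested genes called between the WT groups ran from 6.25% (1 of 16, Socs1) to 25.0% (3 of 12, Stat4), beside 12.8% of all genes, with 20.4% (11 of 54) around Cish and 7.55% (4 of 53) around Stat5a.

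The genes most like each member were sought among the 8403 genes averaging 10 CPM or more, by Pearson's r of the within-group deviations over the 16 samples, and are given as a description. Cish was most like Slc25a25 (r = 0.974), a mitochondrial carrier, Josd1 (0.959) and the stress-responsive transcription factor Atf3 (0.949). Atf3 had 41.3, 25.9, 76.5 and 52.5 CPM in HP1α WT, 40.4, 37.6, 104.7 and 49.0 CPM in HP1α KO, 149.6, 139.8, 133.8 and 131 CPM in HP1γ WT and 163, 122.7, 199.8 and 118 CPM in HP1γ KO. All 8 samples of the HP1α line lay under all 8 of the HP1γ line. The highest sample of each KO group was also the highest for Cish, which the choice of Atf3 by within-group deviations favours. Between the WT groups the log2 fold change was -1.50 for Atf3 and -0.73 for Slc25a25 (adjusted p = 0.00706 and 0.0236, edgeR), in the direction of Cish.

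Stat5a was most like Itpkb (r = 0.952), an inositol trisphosphate kinase of T cell receptor signalling, Lemd3 (0.95), which encodes a protein of the inner nuclear membrane, and Prkrip1 (0.948). Itpkb had 661 to 755 CPM in HP1α WT and 855 to 1221 CPM in HP1γ WT (log2 fold change -0.58, adjusted p = 0.016, edgeR). In HP1γ KO it ran 1491, 1395, 1009 and 908.5 CPM. This is the sample order of Stat5a, which the choice of Itpkb by within-group deviations favours. Stat3 was most like Lrig1 (0.948), the glucocorticoid receptor gene Nr3c1 (0.907) and Tomm34 (0.907). Stat4 was most like Gm33989 (0.928), Stat5b like Thap6 (0.935), Stat6 like Ints3 (0.959) and Jak1 like the chaperonin gene Cct4 (0.9). Of the inhibitors Socs1 was most like Ldb1 (0.916) and Socs2 like Ddx5, at a lower r of 0.771.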

How the data were processed

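Memory CD4+ T cell RNA was prepared with a stranded Illumina mRNA kit and sequenced as paired reads. The authors trimmed reads with Trim Galore, aligned them with STAR to GRCm39 with the Ensembl annotation and quantified genes with Salmon in an nf-core pipeline. They deposited estimated counts per gene, of which 11.6% are not whole, and TPM. Their DEG thresholds were applied with DESeq2.

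Estimated counts were rounded to whole numbers. Groups were taken from the labels. Each pair of groups (4 samples each) was fitted in edgeR 4.0.16 (R 4.3.3) with TMM, filterByExpr with a minimum count of 10 and the quasi-likelihood test, with Benjamini-Hochberg adjustment over all genes tested. The difference of knockout effects was fitted on all 16 samples. CPM are TMM-scaled over 16 samples. Intervals are 95%. Fits were tested on simulated data with 200 genes changed by a log2 fold change of 1, of which edgeR called 86.5% to 100%. Smaller changes, such as those of the called members, and any link between same-numbered samples were not simulated.

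The members and lists were chosen with earlier results of these data known. All members were named, together with, per comparison, the called pathway genes (at most 10 by smallest p, or the first 5 where none was called), the 3 most abundant genes per list, relatives for levels, and the 3 genes most like each member (only some are given). Some items are not reported here. Alternatives were DESeq2 1.42.0 and its size factors, no filter, a replicate block, limma 3.58.1 on log2(TPM + 1) and log2(TPM + 0.1), 1 fit of all 16 samples, and leaving out samples. The fit without both HP1α WT samples high in Rn18s-rs5 was chosen after the data were seen. Shared sequence was searched with blastn 2.17.0 in GENCODE transcripts. The label on treatment was not used, since it differs from the account of the sorted cells.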

Additional observations from a re-analysis of the deposited data

Results flagged for a closer look

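In each group of 4 the highest and the lowest sample were compared with the rest by the gap to the nearest sample over the group's range, set against Dixon's 95% critical value, for the 10 members, which made 40 groups. Chance flags about 1 in 20 groups. Both values past it came from HP1α KO replicate 3, where Socs3 was at 689.6 CPM (ratio 0.924) against 571 to 579.7 CPM in the other 3 samples, and Stat5a at 170.2 CPM (ratio 0.869) against 122 to 128.5 CPM. The same sample was the highest of its group for Cish (243.9 CPM), Stat3 (308 CPM) and Socs1 (58.9 CPM) and the lowest for Stat4 (113 CPM), Stat6 (232 CPM) and Socs2 (17.2 CPM). Its summed myeloid markers were 126.5 CPM, against 44.4 to 78.5 CPM in the rest of its group, and its summed early response genes were 7606 CPM. The part of these values in the members' levels was not tested.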

How the results depend on the processing

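In sum, 700 values of single genes were computed under alternatives. In 51 the sign reversed, 0 of them a call, and 37 calls were lost and 5 gained, all between the WT groups. Members called there (4 in the report) numbered 5 with DESeq2, 3 with its size factors or limma, 4 with no filter, 5 with all 16 samples, 1 with the replicate block, 0 without both HP1α WT samples high in Rn18s-rs5 and 0 to 3 with 1 sample left out. In the other comparisons 0 members were called under any of these. The cause of these changes was not tested.

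Over all genes, HP1α KO against WT gave 0 calls, 5 with DESeq2, 1 with no filter, 1 with limma at either pseudocount and 0 to 3 with 1 sample left out. HP1γ KO gave 49, 252 with DESeq2, 28 and 32 with limma, 96 with all 16 samples and 30 to 49 with 1 left out. The WT groups gave 1896, 577 with the replicate block, 1175 and 1210 with limma, 609 without both high samples and 573 to 2185 with 1 left out. The difference of effects gave 8, 79 with DESeq2, 14 with no filter, 13 with the replicate block, 4 with limma at the smaller pseudocount, 14 without both high samples and 7 to 12 with 1 left out.

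Signs reversed in HP1α KO without both high samples for Stat6 (-0.076), Stat3 (-0.001), Socs1 (-0.023) and Stat4 (0.033), and for Stat4 with DESeq2 and its size factors (both 0.001), and in the difference of effects without both high samples for Socs2 (0.014) and Socs3 (-0.095). They reversed with limma at a pseudocount of 1 and 0.1 in HP1γ KO for Jak1 (0.085 at both), Socs1 (0.053 and 0.054) and Stat4 (0.035 at both), and in the difference of effects for Socs2 (0.028 and 0.029), Jak1 (-0.015), Socs3 (-0.041) and Stat4 (-0.039), each at both. With 1 sample left out the log2 fold change in HP1α KO ran from -0.094 to 0.328 for Cish, -0.003 to 0.07 for Stat3, -0.04 to 0.064 for Stat4, -0.038 to 0.173 for Stat5a and -0.028 to 0.077 for Stat6. In HP1γ KO it ran from -0.041 to 0.025 for Jak1, -0.095 to 0.081 for Socs1 and -0.103 to 0.017 for Stat4. In the difference of effects it ran from -0.41 to 0.011 for Cish, -0.143 to 0.102 for Socs2, -0.058 to 0.122 for Socs3, -0.009 to 0.115 for Stat4 and -0.091 to 0.025 for Stat5b, and between the WT groups from -0.027 to 0.057 for Stat5b.

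Groups share replicate numbers. KO and WT samples of the same number deviated together with r of 0.0847 to 0.355 in the HP1α line and 0.0497 to 0.17 in the HP1γ line. Mean r was 0.217, 0.114 and -0.131 for the HP1α line, the HP1γ line and the WT groups, with 2, 1 and 0 of 4 samples closest to their own number. The rule for a pairing, r beyond 0.1 in every pair, was not met, so the main fits were unpaired. The replicate block was fitted as an alternative. Whether same-numbered samples share a litter was not tested. Every member lay far above the floor of 3 counts in every sample.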
